A study of Arabidopsis thaliana with 24 samples.

Results

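Cytokinins are adenine-derived hormones that promote cell division in shoots and restrain root growth, and their level and signalling are known to change when plants lose water. Isopentenyltransferases (IPT) make the precursors, LOG enzymes release the active bases, and cytokinin oxidases (CKX) destroy them. Histidine kinase receptors (AHK) pass the signal through phosphotransfer proteins (AHP) to type-B response regulators, which switch on target genes, among them the type-A response regulators that dampen the pathway. The genes followed here were 10 of this pathway, chosen by gene identifier: the synthesis genes IPT3 (AT3G63110), IPT5 (AT5G19040) and IPT7 (AT3G23630), the breakdown genes CKX4 (AT4G29740) and CKX5 (AT1G75450), and the type-A regulators ARR4 (AT1G10470), ARR5 (AT3G48100), ARR6 (AT5G62920), ARR7 (AT1G19050) and ARR15 (AT1G74890). Of the 10, 8 were among the 18240 genes of the count table, and ARR6 and ARR15 were not analysed here. A wider list of 58 further cytokinin genes, ordered by role, had 44 in the table.

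The plants were wild-type Arabidopsis thaliana seedlings of the ecotype Columbia-0, 7 days old, each replicate a pool of 30 to 50 seedlings. They stood for 1, 2 or 3 h in a solution of 30% (w/v) polyethylene glycol (PEG) with an average molecular weight of 8000 and an osmotic pressure of -2.0 MPa, which draws water out of the tissue, or for 1 h in water. Root and shoot were parted after treatment, which gave 8 groups of 3 libraries and 24 libraries in all. Water was sampled at 1 h, so at 2 and 3 h time in the solution and PEG cannot be told apart, and all 3 PEG times of an organ share the same water libraries.

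Libraries were made by MARS-seq, which counts transcripts from their 3′ ends. Total counts ran from 1332586 (PEG 1 h, replicate 3) to 5495746 in root and from 343397 (PEG 2 h, replicate 2) to 4009409 in shoot. In shoot libraries 5 photosynthesis genes together took 2.94% to 3.64% of the counts, against 0.0134% to 0.0333% in root libraries, and 6 root genes took 0.0286% to 0.0698% in root against 0.000714% to 0.00274% in shoot. All 11 markers differed between the organs in water in the direction of their label. Within root the root genes' share was 0.0679% to 0.0698% in the water libraries and 0.0286% to 0.0344% at PEG 3 h, and its part in the root results below was not tested. In whole organs, fewer cells of a type and less RNA per cell cannot be told apart. A digit in the submitters' library names, of unstated meaning, was the same in the 3 root water libraries and 1 of the 9 root PEG libraries, and differed between shoot water and all 3 shoot PEG 3 h libraries. Only root PEG 1 h (replicate 1 against 2 and 3) and shoot PEG 2 h (replicate 3 against 1 and 2) held more than 1 digit. Fits with the digit as a term estimate its effect from those libraries alone. Where the groups compared share no digit, treatment or organ and digit cannot be told apart.

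Levels are given as CPM, the counts of a gene per 1000000 counts of its library, with library totals scaled within an organ by TMM factors, with replicates 1, 2 and 3 in that order and ± for the standard deviation (SD) of the 3. A change is a log2 fold change with its standard error (SE), from the quasi-likelihood test of edgeR, with p adjusted by Benjamini-Hochberg over all genes tested, and it was called at an adjusted p under 0.05. Among the members, 4 of 8 passed the filter on low counts in root (IPT3, IPT5, CKX5, ARR4) and 5 of 8 in shoot (IPT3, IPT5, CKX4, ARR4, ARR7).

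IPT3 was the one member called as changed under PEG in either organ. It encodes an adenylate isopentenyltransferase of the phloem that makes cytokinin precursors and is known to respond to nitrate supply. It fell in root at 2 and 3 h and in shoot at 3 h. In the authors' deposited table its log2 fold changes were -1.36 (adjusted p = 0.000618) in root at 2 h, -1.08 (adjusted p = 0.00549) in root at 3 h and -2.13 (adjusted p = 3e-07) in shoot at 3 h.

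In root, IPT3 stood at 44.0, 44.4 and 46.3 CPM in water. After 1 h in PEG it read 37.2, 30.0 and 23.0 CPM, after 2 h 17.3, 16 and 24 CPM, and after 3 h 19.3, 16.8 and 32.6 CPM. All 9 PEG libraries lay below all 3 water libraries, with the widest spread at 3 h, where replicate 3 was highest. The log2 fold change at 2 h was -1.25 (SE 0.23, adjusted p = 0.00055), from a mean of 44.9 ± 1.24 to 19.1 ± 4.31 CPM. At 3 h it was -0.97 (SE 0.22, adjusted p = 0.002), with a mean of 22.9 ± 8.50 CPM. At 1 h the change was -0.54 (SE 0.23) and did not pass after adjustment (adjusted p = 0.10). With the library digit as a further term, the root values were -0.81 at 2 h (adjusted p = 0.33) and -0.53 at 3 h (adjusted p = 0.49), so neither was called, and without PEG 1 h replicate 1 the change at 1 h was -0.78 (adjusted p = 0.04).

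In shoot, IPT3 stood at 25.1, 22.4 and 26.3 CPM in water and at 29.3, 29.4 and 11.4 CPM after 1 h in PEG. It then read 8.44, 10.5 and 18.3 CPM at 2 h and 5.52, 4.08 and 8.34 CPM at 3 h. At 1 h the groups overlapped, and from 2 h every PEG library lay below every water library. The 10.5 CPM of PEG 2 h replicate 2 is 4 counts in a library of 343397. The change at 3 h was -2.02 (SE 0.36, adjusted p = 0.00049), from 24.6 ± 2.01 to 5.98 ± 2.17 CPM, and it was called in all 14 alternatives, at -3.08 to -1.78 (adjusted p 3.6e-06 to 0.0047). At 2 h it was -0.93 (SE 0.37, adjusted p = 0.10), and -1.48 without PEG 2 h replicate 3 (adjusted p = 0.027). At 1 h it was -0.07 (SE 0.31, adjusted p = 0.95).

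PEG 3 h was also compared with PEG 1 h, a contrast that leaves out the water means, although the water libraries still enter the filter, the scaling and the estimate of the spread. In shoot IPT3 fell between these times by 1.95 on the log2 scale (SE 0.36, adjusted p = 0.0065), a call lost without PEG 3 h replicate 2 (adjusted p = 0.054). It was the one member called of 5 tested there, where 2.06% of all genes rose and 1.63% fell. In root the difference was -0.43 (SE 0.23, adjusted p = 0.25), and -0.78 without PEG 3 h replicate 3 (adjusted p = 0.018). None of the 4 root members was called by edgeR or DESeq2, none had an unadjusted p under 0.05, and 5.57% of all genes rose and 8.58% fell. The difference between the organs' IPT3 changes itself was 1.05 at 3 h (root minus shoot, SE 0.45, adjusted p = 0.11), which was not called in the fit without a replicate term.

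**Figure D1:**
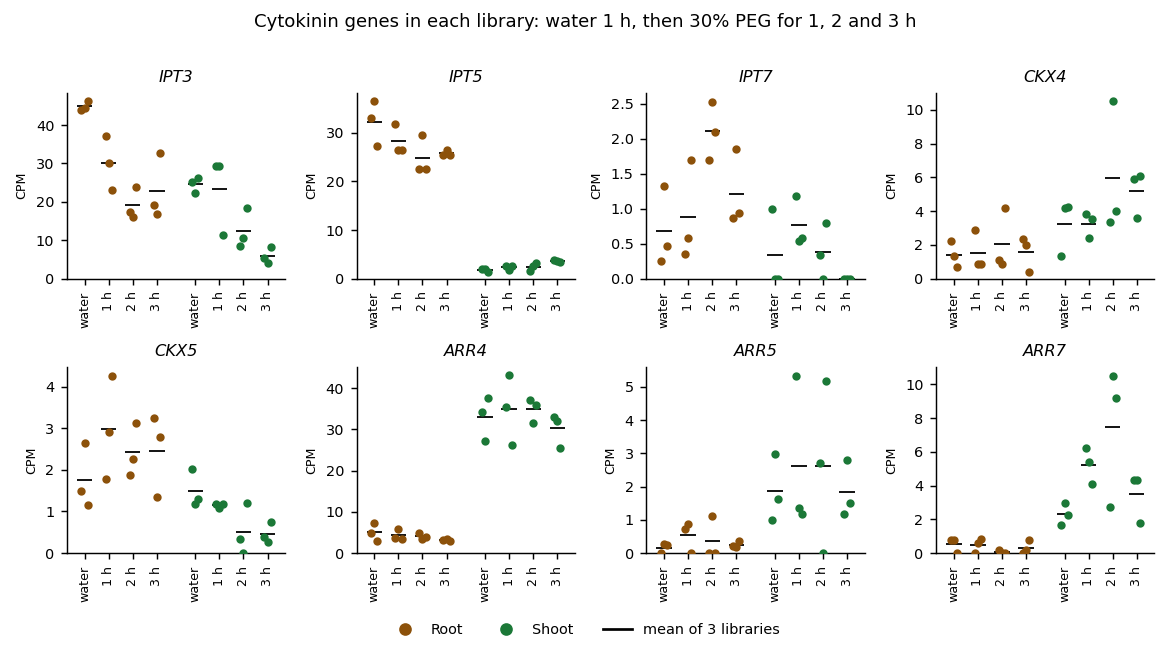
Level of each of the 8 cytokinin genes in CPM (vertical axes, from 0) in every library, by organ (brown root, green shoot) and treatment (water 1 h, then PEG for 1, 2 and 3 h), with a line at the mean of 3 libraries. IPT3 read 44.0 to 46.3 CPM in root water and 16.0 to 37.2 CPM in the root PEG libraries, and 4.08 to 8.34 CPM in shoot after 3 h.

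IPT5, an isopentenyltransferase known to be induced by auxin in root tips and lateral root primordia, was a root transcript. In root it read 33.0, 36.5 and 27.2 CPM in water, 31.8, 26.5 and 26.4 CPM at 1 h, 22.5, 29.5 and 22.6 CPM at 2 h and 25.5, 26.4 and 25.5 CPM at 3 h. The PEG 3 h libraries lay just below the lowest water library, and at 1 and 2 h the groups overlapped. None of the root changes was called, at -0.18 (SE 0.17, adjusted p = 0.49), -0.37 (SE 0.16, adjusted p = 0.098) and -0.31 (SE 0.16, adjusted p = 0.11). Without water replicate 3, the lowest, the values at 2 and 3 h were -0.53 (adjusted p = 0.043) and -0.46 (adjusted p = 0.049).

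In shoot IPT5 had 94 counts over 12 libraries. It read 2.01, 2.09 and 1.30 CPM in water, 2.66, 1.89 and 2.64 CPM at 1 h, 1.69, 2.64 and 3.19 CPM at 2 h and 3.95, 3.57 and 3.54 CPM at 3 h. At 3 h all PEG libraries lay above all water libraries, and the change of 1.00 (SE 0.42) did not pass after adjustment (adjusted p = 0.082). The changes in the organs differed at 3 h by -1.31 (root minus shoot, SE 0.40, adjusted p = 0.021), the one such difference called among 7 members tested. It was not called without root water replicate 1 (adjusted p = 0.056), root water replicate 2 (0.073), shoot water replicate 3 (0.12) or shoot PEG 3 h replicate 2 (0.055), nor with the library digit as a term (-0.22, adjusted p = 1).

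IPT7, an isopentenyltransferase known from the root elongation zone, was near the limit of counting, with 57 counts in root and 14 in shoot, and passed the filter in neither organ. In root it read 0.25, 1.32 and 0.465 CPM in water and 1.69, 2.53 and 2.09 CPM at PEG 2 h, so those groups did not overlap. With no filter, the root change at 2 h was 1.54 (adjusted p = 0.093). In shoot at PEG 3 h it had 0 counts of 10170985, which allows up to 0.295 CPM, counting error only, and its shoot water libraries read 1.00, 0 and 0 CPM.

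The breakdown genes were also weakly counted. CKX4 and CKX5 encode cytokinin oxidases that cleave the side chain of the hormone and are themselves known to be induced by cytokinin. In shoot, CKX4 read 1.34, 4.18 and 4.22 CPM in water and 5.92, 3.57 and 6.07 CPM at PEG 3 h, and the groups overlapped. Its shoot changes were -0.01, 0.38 and 0.64 at 1, 2 and 3 h (SE 0.44, 0.49 and 0.42), with adjusted p of 1, 0.65 and 0.27. In root it had 75 counts and was not tested.

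CKX5 in root read 1.5, 2.64 and 1.16 CPM in water and 3.25, 1.34 and 2.80 CPM at PEG 3 h. The groups overlapped at each of the 3 times, and the changes were 0.65, 0.42 and 0.46 (SE 0.52, 0.48 and 0.46; adjusted p 0.41, 0.58 and 0.44). In shoot CKX5 had 35 counts and was not tested under the filter, with 2.01, 1.19 and 1.30 CPM in water and 0.395, 0.255 and 0.758 CPM at PEG 3 h. Every shoot PEG 3 h library lay below every water library, and with no filter the change was -1.57 (adjusted p = 0.12).

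ARR4, a type-A regulator known to bind phytochrome B, was counted well in shoot, with 1201 counts against 193 in root. In shoot it read 34.1, 27.2 and 37.7 CPM in water, 35.5, 43.1 and 26.1 CPM at 1 h, 37.1, 31.6 and 35.9 CPM at 2 h and 33.1, 32.1 and 25.5 CPM at 3 h. The groups overlapped at every time, and the changes were 0.09 (SE 0.19), 0.12 (SE 0.21) and -0.13 (SE 0.19), with adjusted p of 0.89, 0.75 and 0.66. In root it read 4.75, 7.40 and 3.03 CPM in water and 3.25, 3.36 and 2.80 CPM at 3 h, a change of -0.67 (SE 0.34, adjusted p = 0.13). Without root water replicate 3 that change was -0.97 (adjusted p = 0.041).

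ARR7, a type-A regulator of the shoot meristem known to be repressed there by WUSCHEL, had 147 counts in shoot. It read 1.67, 2.99 and 2.27 CPM in water and 6.22, 5.39 and 4.11 CPM at PEG 1 h, where all PEG libraries lay above all water libraries. At 2 h it read 2.70, 10.5 and 9.17 CPM and at 3 h 4.34, 4.33 and 1.77 CPM, and both groups overlapped with water. None of these changes was called, at 1.15 (SE 0.46, adjusted p = 0.17), 1.41 (SE 0.51, adjusted p = 0.066) and 0.54 (SE 0.50, adjusted p = 0.46). Without PEG 2 h replicate 1, the change at 2 h was 2.00 (adjusted p = 0.015). That fit leans on PEG 2 h replicate 2, where 10.5 CPM is 4 counts in a library of 343397.

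ARR5, a type-A regulator widely used as a cytokinin reporter, had 86 counts in shoot, where its level ran from 0 to 5.33 CPM with a median of 1.57, and was not tested there. In root, ARR5 and ARR7 had 15 counts each, and 4 and 5 of the 12 libraries held none. No response of either to PEG in root was detectable at this depth.

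Counted over the members, 0 of 4 were called in root at 1 h, 1 at 2 h and 1 at 3 h, all lower and all IPT3. Of the 10941 genes tested in root, the shares that rose were 11.5%, 12.7% and 21.1% at the 3 times, and the shares that fell were 9.06%, 12.3% and 19.5%. In shoot 0 of 5 were called at 1 and 2 h and 1 (IPT3, lower) at 3 h, while of 13769 genes 4.25%, 8.19% and 14.5% rose at the 3 times and 1.07%, 5.65% and 11.5% fell. DESeq2 called the same number of members at each of these 6 points. Where edgeR called none, 1 member had an unadjusted p under 0.05 in root at 1 h (IPT3), 1 in shoot at 1 h (ARR7) and 2 in shoot at 2 h (IPT3 and ARR7). With so few members tested, these counts cannot be set apart from the background.

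**Figure D2:**
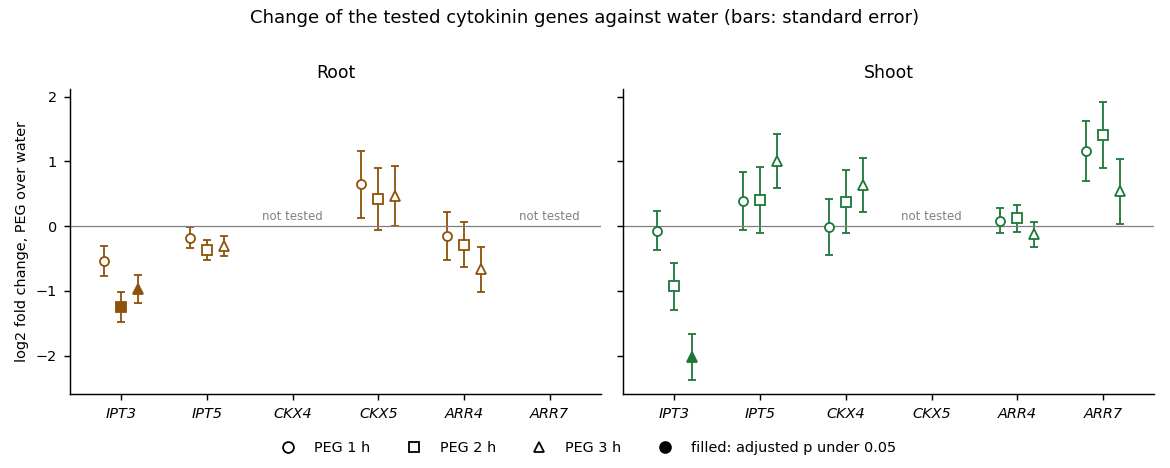
Log2 fold change of PEG over water (vertical axis, bars of 1 SE) for the members tested in root (left) and shoot (right) at 1, 2 and 3 h, filled where the adjusted p was under 0.05. The filled points are IPT3 in root at 2 and 3 h (-1.25 and -0.97) and in shoot at 3 h (-2.02).

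Between the organs in water, IPT3 and IPT5 were higher in root and ARR4, ARR5 and ARR7 were lower there. On a scale common to all 24 libraries, IPT5 read 35.3 ± 4.90 CPM in root and 1.74 ± 0.415 in shoot, a difference of 4.31 (root minus shoot, SE 0.26, adjusted p = 2.1e-16). IPT3 read 49.2 ± 1.79 CPM in root and 23.8 ± 1.98 in shoot, a difference of 1.05 (SE 0.28, adjusted p = 0.0014). With the library digit as a term that difference was -0.01 (adjusted p = 1). Root and shoot water libraries shared no digit, so organ and digit cannot be told apart in that fit. The root minus shoot difference of ARR4 was -2.54 (SE 0.26, adjusted p = 6e-11), that of ARR5 was -3.11 (SE 1.00, adjusted p = 0.0048) and that of ARR7 was -1.98 (SE 0.74, adjusted p = 0.014). In water ARR5 had only 2 counts in root and 18 in shoot, and ARR7 had 6 and 22, each over 3 libraries. The ARR7 call was lost without root water replicate 3 (adjusted p = 0.057) or shoot water replicate 2 (0.059). CKX4 (-1.02, adjusted p = 0.10) and CKX5 (0.40, adjusted p = 0.46) were not called.

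These differences stand against a background in which most genes differed. Of 15472 genes, 37.8% were higher and 47.6% lower in root, beside 2 and 3 of the 7 members tested. The median gene lay at -0.50 on this scale. Whether a difference near that value is an organ preference was not tested. The median moved to -0.74 with DESeq2 size factors, under which the same 5 members were called with the same signs and CKX4 was called as well (-1.26, adjusted p = 0.048). Upper-quartile factors also called it, at the threshold (-1.24, adjusted p = 0.05 after rounding). CKX4 was also called without root water replicate 1 (-1.65, adjusted p = 0.03) or shoot water replicate 1 (-1.37, adjusted p = 0.033).

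The responses of the organs were also compared directly. At 1 and 2 h none of the 7 members differed by edgeR or DESeq2, and 0 and 1 (ARR7) had an unadjusted p under 0.05. At 3 h 1 was called (IPT5), and 3 had an unadjusted p under 0.05 (IPT3, IPT5 and CKX5). Over all genes the root response was higher in 2.72% and lower in 5.16% at 1 h, in 3.35% and 4.16% at 2 h, and in 10.1% and 6.73% at 3 h. ARR7 at 2 h differed by -3.64 (SE 1.43, adjusted p = 0.12) and CKX5 at 3 h by 2.03 (SE 0.80, adjusted p = 0.079). With upper-quartile scaling the share of higher among all called genes was 68.0% in place of 34.5% at 1 h, and 62.9% in place of 44.6% at 2 h. The median gene then lay at 0.09 in place of -0.16 at 1 h.

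The genes whose level followed IPT3 most closely were found by Pearson correlation of log2 CPM over the 12 libraries of an organ, among genes with a mean of at least 10 CPM. In root these were AT2G12462 (r = 0.933), AT3G26510 (0.929) and MEE62 (AT5G45800, 0.92). In shoot they were AT1G65845 (0.954), XTH17 (AT1G65310, 0.95), a xyloglucan endotransglucosylase/hydrolase of the cell wall, and GSR 1 (AT5G37600, 0.947), a cytosolic glutamine synthetase. The 12 points share the treatment groups, so these values describe a common course under PEG and carry no test. CKX4 and ARR5 were under 5 CPM in both organs and were not compared.

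The wider list describes further genes of the pathway. In root 28 of its genes were tested, of which 9, 9 and 13 rose at the 3 times and 5, 5 and 6 fell. In shoot 30 were tested, of which 4, 6 and 14 rose and 1, 2 and 4 fell. The median change of the list was 0.07, 0.49 and 0.70 in root, beside 0.03, 0.06 and 0.07 over all genes, and 0.39, 0.45 and 0.75 in shoot, beside 0.00, 0.01 and 0.01. The background shares are those given above for the members. The list was chosen with earlier results of these data known. Its counts and medians, and those of its role groups below, therefore describe the chosen genes and are no test of the pathway. A fit that also held the library digit called 9, 7 and 9 root genes in place of 14, 14 and 19, and 7 shoot genes at 3 h in place of 18. Calls over all genes fell in that fit too. In root 369, 353 and 455 of all genes rose, in place of 1257, 1393 and 2304. Those that fell in root were 260, 260 and 532, in place of 991, 1351 and 2136. In shoot at 3 h 1303 rose in place of 1994, and 1061 fell in place of 1584. The shoot count at 1 h was 1 without water replicate 1 or water replicate 2, 2 without water replicate 3 or PEG 1 h replicate 3, and 3 without PEG 1 h replicate 1, and at 2 h it was 2 without PEG 2 h replicate 1, 3 without water replicate 1 and 5 without water replicate 2 or 3. In those 1 h fits 328 to 568 of all genes rose in place of 585, and 55 to 122 fell in place of 148. In those 2 h fits 572 to 937 rose in place of 1127, and 285 to 847 fell in place of 778.

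Upstream of the response, the receptor AHK2 fell in both organs. In root it read 53.5, 37.5 and 49.6 CPM in water and 22.1, 22.3 and 22.4 CPM at PEG 3 h, a change of -1.07 (SE 0.20, adjusted p = 0.00047), with -0.66 at 2 h (SE 0.21, adjusted p = 0.025). With the library digit as a term the root values were -0.19 at 3 h and 0.22 at 2 h (adjusted p = 0.78 at each), and the call at 2 h was lost without water replicate 1 or 3 or PEG 2 h replicate 1 or 2 (adjusted p 0.067 to 0.11). In shoot AHK2 read 18.4, 20.3 and 23.1 CPM in water and 11.5 to 14.5 CPM in all 9 PEG libraries, and it was lower at 1 h (-0.69, adjusted p = 0.048), 2 h (-0.82, adjusted p = 0.021) and 3 h (-0.74, adjusted p = 0.0098). The shoot call at 1 h was lost without any 1 of the 6 libraries (adjusted p 0.057 to 0.2), the call at 2 h without water replicate 3 or PEG 2 h replicate 1 or 3 (0.052 to 0.1), and the call at 3 h without water replicate 3 (0.052). AHK2 in shoot at 1 h was not called in the authors' deposited table (-0.73, adjusted p = 0.0853). The related receptor AHK3 rose at 3 h, by 0.94 in root (adjusted p = 0.026) and 0.72 in shoot (adjusted p = 0.028). These calls were lost without root water replicate 1 or 2 or PEG 3 h replicate 2 (adjusted p 0.065 to 0.14), and without shoot water replicate 3 or PEG 3 h replicate 1 or 2 (0.068 to 0.14). The authors' deposited table called AHK3 at 3 h in neither root (adjusted p = 0.0619) nor shoot (0.0916). AHK4, the receptor known from root vasculature, was below the filter in both organs. Of the phosphotransfer proteins 2 were tested in root and 3 in shoot, and AHP6, which is known to block the relay, was the one called, in root at 3 h (0.54, adjusted p = 0.043), a call lost without any 1 of the 6 libraries but water replicate 3 (0.054 to 0.2). The authors' deposited table did not call AHP6 in root at 3 h (adjusted p = 0.258).

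The type-B regulators ARR1 and ARR2, which activate cytokinin targets, fell in root at all 3 times. ARR1 read 144, 134 and 153 CPM in root water and 89.3 to 118 CPM in the 9 PEG libraries, with changes of -0.43 (adjusted p = 0.017), -0.48 (0.0056) and -0.54 (0.0013). ARR2 read 46.5, 40.4 and 35.8 CPM in root water and 18.6 to 27.1 CPM in the PEG libraries, with changes of -0.86 (9e-04), -0.65 (0.0037) and -0.92 (9.3e-05). Neither gene's PEG libraries overlapped with water, and the share of all genes without overlap was not counted. With the library digit as a term ARR1 was not called in root at any time (adjusted p 0.13, 0.17 and 0.09), nor ARR2 at 2 and 3 h (0.26 and 0.067), and in shoot the ARR1 call at 3 h was at the threshold and lost (0.05 after rounding). That term also lost the ARR1 difference between organs at 2 h (adjusted p = 0.094). In shoot ARR1 rose, from 28.5, 30.8 and 21.8 CPM in water to 39.7, 42.1 and 44.3 CPM at 1 h (0.64, adjusted p = 0.037) and 50.5, 39.7 and 48.3 CPM at 3 h (0.77, adjusted p = 0.0027). The ARR1 response differed between the organs at 1 h (-1.28, adjusted p = 0.00039), 2 h (-1.06, adjusted p = 0.0036) and 3 h (-1.31, adjusted p = 8.9e-05). ARR12, of the same class, rose in shoot at 2 h (0.86, adjusted p = 0.04) and 3 h (0.84, adjusted p = 0.016) and was not tested in root. The authors' deposited table differed for ARR12. It was not called there in shoot at 2 h (0.82, adjusted p = 0.135) or 3 h (0.75, adjusted p = 0.0977). In root ARR12 was higher there at 3 h (1.65, adjusted p = 0.0288), with 75 counts over all root libraries. Without PEG 1 h replicate 2 the root ARR1 call at 1 h was lost (adjusted p = 0.051), and the shoot ARR1 call at 1 h was lost without any 1 of the 6 libraries (0.05 to 0.21). The ARR12 calls were lost without any 1 library but PEG 2 h replicate 3 at 2 h (0.064 to 0.35), and without water replicate 2 or 3 or PEG 3 h replicate 2 or 3 at 3 h (0.059 to 0.069). The ARR1 difference between organs at 2 h was lost without root water replicate 1 or 3, root PEG 2 h replicate 2 or shoot water replicate 3 (0.055 to 0.11).

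Other type-A regulators did not move as a group. In root ARR8 rose at 2 h (0.62, adjusted p = 0.017) and 3 h (1.31, adjusted p = 1.4e-05), from 27.5, 32.8 and 34.9 CPM in water to 63.0, 89.2 and 82.9 CPM at 3 h, and in shoot it rose at 3 h (0.93, adjusted p = 0.0076). ARR3 fell in root at 3 h, from 15.0, 18.8 and 21.9 CPM to 8.66, 9.58 and 5.96 CPM (-1.20, SE 0.23, adjusted p = 0.00054), and had 7 counts in all shoot libraries. Both differed between PEG 3 h and PEG 1 h in root as well, ARR8 by 1.20 (adjusted p = 0.00034) and ARR3 by -1.30 (adjusted p = 0.0016). The ARR8 call in root at 2 h was lost without water replicate 1 or 2 or PEG 2 h replicate 3 (0.06 to 0.13), and in the fit to all 24 libraries (0.12). The authors' deposited table did not call ARR8 in root at 2 h (0.51, adjusted p = 0.238). The library digit as a term lost the calls of ARR8 in root at 2 h (0.53) and in shoot at 3 h (0.59), and of ARR3 in root at 3 h (0.17).

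The cytokinin response factors (CRF), transcription factors of the AP2/ERF family that act beside the type-B regulators, rose in root. Of 6 tested, 5 (CRF2 to CRF6) rose at each of the 3 times, where 11.5%, 12.7% and 21.1% of all genes rose, and CRF1 was not called. In the fit to all 24 libraries the 1 h calls of CRF2 (0.51, adjusted p = 0.08) and CRF4 (0.85, adjusted p = 0.071) were lost. With the library digit as a term the 2 h call of CRF2 was lost (adjusted p = 0.073). CRF5 read 3.25, 3.97 and 3.49 CPM in root water, 12.9, 13.4 and 19.6 CPM at 1 h, 16.9, 16.3 and 13.2 CPM at 2 h and 26.4, 18.7 and 22.4 CPM at 3 h. Its changes of 2.03 (SE 0.26, adjusted p = 1.8e-05), 2.12 (SE 0.24, adjusted p = 2.8e-06) and 2.65 (SE 0.23, adjusted p = 6.3e-08) were past the threshold in each of the 14 alternatives. CRF6, known for its role in oxidative stress and leaf senescence, rose by 1.40, 1.41 and 1.70 (adjusted p 2e-05, 6e-06 and 2.9e-07), and CRF3 by 1.12, 1.12 and 1.33 (adjusted p 2.8e-05, 1.3e-05 and 8.5e-07). CRF4 read 42.5, 29.9 and 30.7 CPM in root water and 138, 128 and 88.0 CPM at 3 h (1.78, adjusted p = 2.8e-05), and CRF2 rose by 1.01 at 3 h (adjusted p = 7.1e-05). In root none of these 5 genes' PEG libraries overlapped with water at any time. The share of all genes without overlap was not counted, so this only describes the libraries.

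In shoot 5 response factors were tested, and CRF3 and CRF5 rose at every time. With the library digit as a term the calls of CRF3 at 2 h (adjusted p = 0.05 after rounding) and 3 h (0.23) were lost, as were those of CRF2, CRF5 and CRF6 at 3 h (0.17, 0.24 and 0.26). CRF5 read 8.37, 4.48 and 3.90 CPM in shoot water and 14.5, 12.7 and 22.6 CPM at 1 h, with changes of 1.57, 1.62 and 1.39 (adjusted p 0.0024, 0.0023 and 0.0022). CRF3 read 2.01, 1.49 and 2.60 CPM in water and 4.73, 8.66 and 6.57 CPM at 3 h, with changes of 1.60, 1.76 and 1.73 (adjusted p 0.016, 0.0083 and 0.002). CRF2 (0.89, adjusted p = 0.0095) and CRF6 (0.97, adjusted p = 0.0017) rose at 3 h, and CRF4 was not called, at 0.24 (SE 0.37, adjusted p = 0.68). The CRF4 change was larger in root than in shoot at 3 h by 1.55 (adjusted p = 0.029). That difference was lost without root water replicate 2 or 3, root PEG 3 h replicate 1 or 2, shoot water replicate 3 or shoot PEG 3 h replicate 1 or 3 (0.05 to 0.088). The CRF3 call at 1 h was lost without water replicate 1 or 2 or PEG 1 h replicate 1 or 3 (0.051 to 0.087), the CRF3 call at 2 h without PEG 2 h replicate 3 (0.051), and the CRF2 call at 3 h without water replicate 3 or PEG 3 h replicate 1 (0.062 and 0.075).

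**Figure D3:**
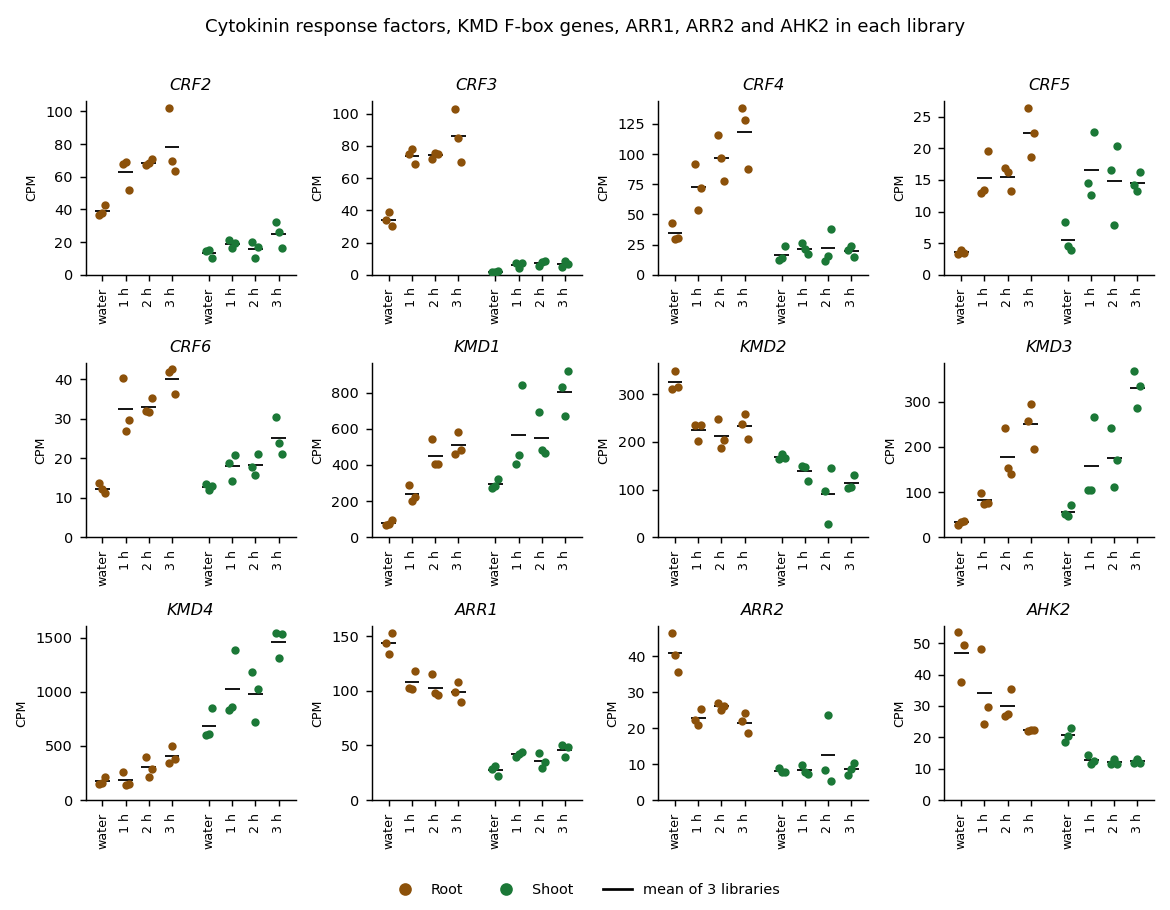
Level in CPM (vertical axes, from 0) of CRF2 to CRF6, KMD1 to KMD4, ARR1, ARR2 and AHK2 in every library, by organ (brown root, green shoot) and treatment (water 1 h, then PEG for 1, 2 and 3 h), with a line at the mean of 3 libraries. KMD1 in root climbed from 68.4 to 97.7 CPM in water to 463 to 580 CPM at 3 h, while KMD2 and ARR1 lay lower in every root PEG library than in water.

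The KMD genes encode F-box proteins known to mark type-B regulators for degradation, and KMD1, KMD3 and KMD4 rose in both organs by 3 h, where 21.1% of all genes rose in root and 14.5% in shoot. KMD1 read 68.4, 74.8 and 97.7 CPM in root water, 287, 203 and 226 CPM at 1 h, 544, 405 and 407 CPM at 2 h and 463, 580 and 481 CPM at 3 h. Its root changes were 1.57 (SE 0.17, adjusted p = 4.5e-06), 2.49 (SE 0.17, adjusted p = 1.1e-08) and 2.66 (SE 0.17, adjusted p = 2.8e-09). In shoot it rose from 272, 286 and 320 CPM in water to 829, 668 and 920 CPM at 3 h, with changes of 0.95 (adjusted p = 0.022), 0.91 (0.016) and 1.46 (0.00022). The shoot calls were lost at 1 h without any 1 water library or PEG 1 h replicate 3 (0.052 to 0.14), and at 2 h without water replicate 1 or 2 or PEG 2 h replicate 1 (0.056 to 0.1). The root change was the larger at 2 h (difference 1.49, adjusted p = 0.0052) and 3 h (1.20, adjusted p = 0.011).

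KMD3 rose in root from 28.5, 33.6 and 37.2 CPM to 258, 295 and 196 CPM at 3 h, by 1.32, 2.44 and 2.92 at the 3 times (adjusted p 0.00081, 1.3e-06 and 1.2e-07). In shoot it rose at 2 h (1.69, adjusted p = 0.017) and 3 h (2.54, adjusted p = 0.00076), and at 1 h the value of 1.49 was just outside the threshold (adjusted p = 0.051). The authors' deposited table called KMD3 in shoot at 1 h (1.42, adjusted p = 0.000267). It also called KMD3 in shoot between PEG 3 h and PEG 1 h (1.03, adjusted p = 0.0243). KMD4 rose at 3 h, by 1.23 in root (adjusted p = 0.0071) and 1.09 in shoot (adjusted p = 0.00067). KMD2 went the other way. It fell in root from 311, 349 and 314 CPM to 187 to 258 CPM in the PEG libraries (-0.54, -0.60 and -0.47; adjusted p 0.0051, 0.0014 and 0.0054), and was not called in shoot by edgeR (-0.28, -0.74 and -0.57). In the authors' deposited table KMD2 was lower in shoot at 2 h (-0.81, adjusted p = 0.0173) and 3 h (-0.67, adjusted p = 0.0307). In root that table called KMD2 at 2 h (-0.73, adjusted p = 0.0184) and not at 1 h (0.0737) or 3 h (0.0565). The library digit as a term lost the 3 root calls of KMD2 (0.17, 0.27 and 0.39) and the shoot calls of KMD3 (0.054) and KMD4 (0.095) at 3 h. The fit to all 24 libraries lost the root call of KMD2 at 3 h (0.1). KMD1, KMD3 and KMD4 were also higher at PEG 3 h than at PEG 1 h in root, by 1.09, 1.59 and 1.15 (adjusted p 0.00027, 0.00021 and 0.028), 3 of the 5 genes of the list that rose there, beside 1 that fell, of 28 tested. Over all genes 5.57% rose and 8.58% fell in that comparison. The KMD4 call between those times was lost without PEG 1 h replicate 2 or 3 or PEG 3 h replicate 2 or 3 (0.065 to 0.1). In shoot the KMD3 call at 2 h was lost without water replicate 1 or 2 or PEG 2 h replicate 1 (0.064 to 0.092).

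Among the other enzymes, LOG7, which releases active cytokinin from its nucleotide, fell in root at all 3 times. It read 25.7, 22.2 and 30.3 CPM in root water and 8.94, 12.2 and 7.66 CPM at 1 h, with changes of -1.38, -0.81 and -0.97 (adjusted p 0.0011, 0.016 and 0.0026). The call at 2 h was lost without water replicate 3, PEG 2 h replicate 2 or PEG 2 h replicate 3 (adjusted p 0.062, 0.10 and 0.053), and the calls at 2 and 3 h with the library digit as a term (0.3 and 0.16). Of the 5 synthesis genes of the wider list tested in root, LOG8 was called higher at 1 h and CYP735A1 at 3 h. In the authors' deposited table these changes were 1.21 (adjusted p = 0.0123) and 0.69 (adjusted p = 0.0962). In shoot UGT85A1, which stores trans-zeatin as an O-glucoside, fell from 303, 276 and 292 CPM in water to 157, 58.0 and 214 CPM at 2 h and 112, 102 and 124 CPM at 3 h. Its changes there were -0.91 (SE 0.25, adjusted p = 0.025) and -1.36 (SE 0.25, adjusted p = 0.00076), and no library overlapped with water. The 58.0 CPM at 2 h is from replicate 2, a library of 343397 counts. The call at 2 h was lost without water replicate 1 or 3 or PEG 2 h replicate 1 (0.061 to 0.094). UGT76C2 and UGT76C1, which inactivate cytokinins by N-glucosylation, rose in shoot at 3 h by 0.82 (adjusted p = 0.0061) and 0.88 (adjusted p = 0.014), the latter a call lost without water replicate 1 or 2 or PEG 3 h replicate 2 (0.054 to 0.069). Both were lost with the library digit as a term (0.32 and 0.53). ABCG14, the exporter that loads root cytokinin for transport to the shoot, was lower in shoot at 3 h (-1.35, SE 0.36, adjusted p = 0.0079), with 10.7, 11.4 and 8.77 CPM in water and 6.31, 3.82 and 2.53 CPM at 3 h. In root it was higher at 3 h (1.35, SE 0.53, adjusted p = 0.05 after rounding), from 0.749, 0.793 and 1.63 CPM to 1.73, 4.71 and 1.68 CPM. That root call was lost in 8 alternatives, at 0.66 without PEG 3 h replicate 2 (adjusted p = 0.4), 1.12 without water replicate 1 (0.17) and 1.14 without water replicate 2 (0.16). ABCG14 in root at 3 h was not called in the authors' deposited table (1.26, adjusted p = 0.117). Nor was UGT76C1 in shoot at 3 h (0.79, adjusted p = 0.0861).

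**Figure D4:**
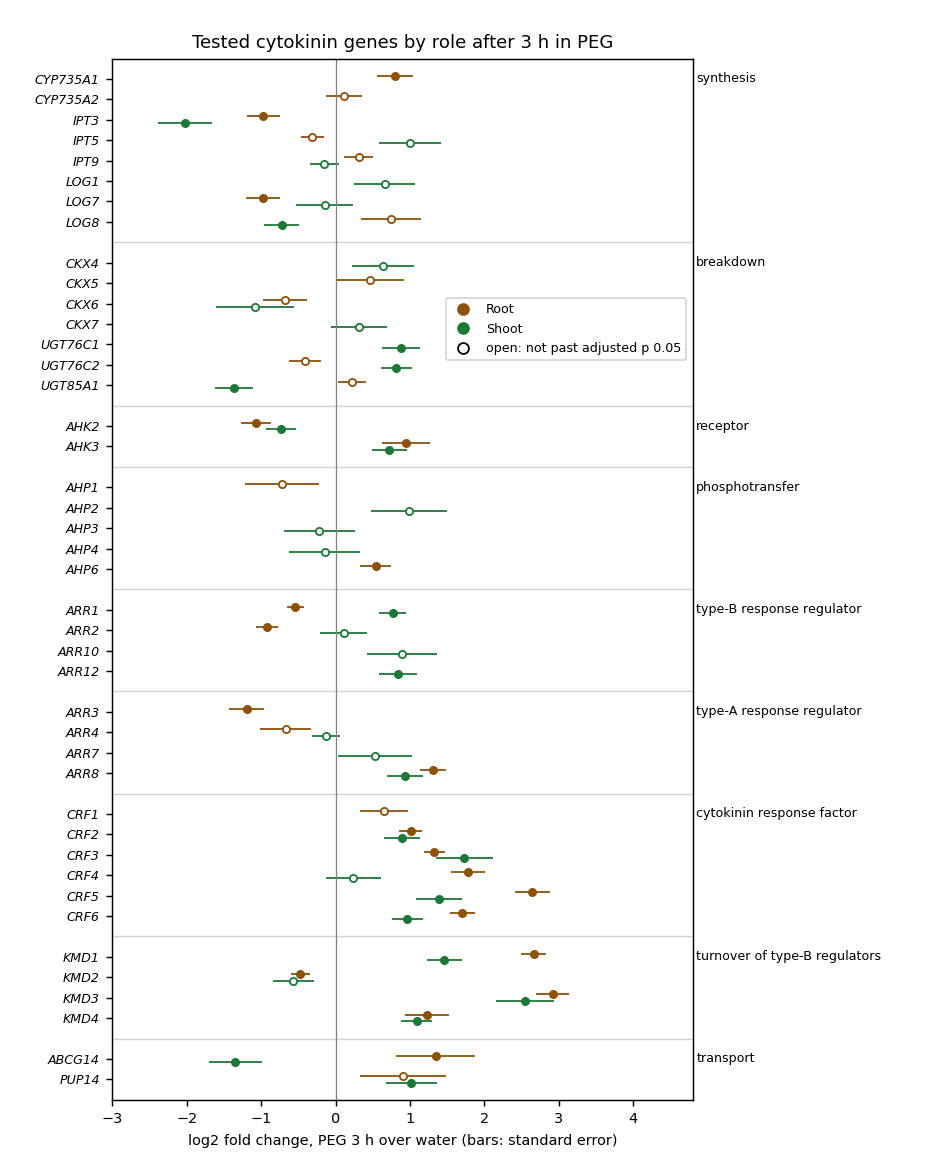
Log2 fold change of PEG 3 h over water (horizontal axis, bars of 1 SE) for every cytokinin gene tested in root (brown) or shoot (green), grouped by role, filled where the adjusted p was under 0.05. IPT3 lies to the left in both organs (-0.97 and -2.02), and CRF5 (2.65 and 1.39), KMD1 (2.66 and 1.46) and KMD3 (2.92 and 2.54) lie to the right in both.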

How the data were processed

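Gene counts came from MARS-seq libraries, and the deposited counts were read as they stand. The submitters' processing notes name bcl2fastq, cutadapt, STAR 2.4.2a, HTSeq and DESeq2, and the genome build and the treatment of molecular identifiers are not given in the sources used here. The authors also deposited a normalized signal per library, which equalled the counts divided by 1 factor per library (largest relative spread 9.8e-15). Their deposited comparison table gives log2 fold changes and adjusted p-values, quoted for single genes where it is named. All 72 per-sample columns were mapped by name.

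Counts were tested with edgeR 4.0.16 (TMM factors, filterByExpr, robust quasi-likelihood F test) in R 4.3.3. Each organ was fitted alone (12 libraries, residual df 8), and all 24 libraries together (residual df 16) for differences between organs. SE is the fold change over the root of F. The test was checked on simulated data. Symbols were taken from RefSeq TAIR10.1, which held 18125 of the 18240 identifiers. Intervals and count limits cover counting error only, and p-values measure the spread between pools of seedlings.

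The members, the gene lists and the markers were chosen with earlier results of these data known. The text names every member and, from the wider list, up to 8 called genes per organ with the lowest adjusted p, plus genes that a sentence on a role needs. Alternatives were DESeq2 1.42.0 (size factors or Wald test), upper-quartile factors, no filter, a replicate block, the library digit as a term, only the groups compared, all 24 libraries, and leaving out each library. ARR6 and ARR15 were not analysed here.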

Additional observations from a re-analysis of the deposited data

Results flagged for a closer look

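These genes are listed because their response to PEG differed between root and shoot by a test of the difference itself, the interaction term of the fit to all 24 libraries. Each value is the root log2 fold change minus the shoot one, with the adjusted p of edgeR's test, and 18 alternatives were run for each.

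Among the members, IPT5 differed at 3 h by -1.31 (SE 0.40, adjusted p = 0.021), and 13 of 18 alternatives called it. Root IPT5 was lower and shoot IPT5 higher than in water, neither past the threshold within its organ.

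In the wider list, ARR1 differed at all 3 times, by -1.28, -1.06 and -1.31 (adjusted p 0.00039, 0.0036 and 8.9e-05), with calls in 18, 13 and 18 alternatives. UGT76C2 differed by -1.26, -1.35 and -1.22 (adjusted p 0.012, 0.008 and 0.0047), with calls in 11, 13 and 17. ARR2 differed by -1.09 at 1 h (adjusted p = 0.044), which none of the 18 alternatives called (adjusted p 0.053 to 0.25), and by -1.02 at 3 h (adjusted p = 0.031), which 8 called. KMD1 differed by 1.49 at 2 h and 1.20 at 3 h (adjusted p 0.0052 and 0.011), called in 17 alternatives each.

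At 3 h UGT85A1 differed by 1.59 (adjusted p = 0.0019), called in all 18 alternatives, and ABCG14 by 2.70 (adjusted p = 0.0034), called in 17. LOG8 differed by 1.48 (adjusted p = 0.026), called in 14, CRF4 by 1.55 (adjusted p = 0.029), called in 10, and CRF5 by 1.26 (adjusted p = 0.033), called in 11.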

How the results depend on the processing

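The alternatives covered 192 fold changes, every one tested for the members and, of the wider list, those already called, so uncalled genes of that list could not gain a call. Of 2736 alternatives, 2363 kept their direction and side of the threshold, 301 lost the call, 17 gained one, 50 changed sign without a call and 5 called values reversed. All 5 reversed with the library digit as a term: AHK2 in root at 2 h (0.221), LOG8 in shoot at 3 h (0.025), and, between organs in water, CYP735A2 (-1.027), IPT3 (-0.005) and CRF4 (-0.42). That term also left 0 members called in root at 2 h, 0 in root at 3 h and 0 for the difference between organs at 3 h, 1 in shoot at 2 h, and 9, 7 and 9 genes of the wider list in root and 7 in shoot at 3 h. Calls over all genes also fell with that term in root and in shoot at 3 h, by the counts given above. The cause was not tested. The digit's effect was estimated from root PEG 1 h and shoot PEG 2 h alone, the groups that held more than 1 digit. Where the groups compared share no digit, treatment or organ and digit cannot be told apart. With only the 2 groups compared, 1 member was called in root at 1 h and 1 in shoot at 2 h (IPT3 each time), and 5 wider genes in shoot at 2 h. Leaving out 1 library gave 0 to 1 members in root at 1 h, 1 to 2 at 2 h, 1 to 3 at 3 h, 0 to 1 in shoot at 2 h, 0 to 1 between PEG 3 h and 1 h in root and in shoot, and 0 to 2 for the difference between organs at 3 h. For the wider list it gave 1 to 5 genes in shoot at 1 h and 2 to 8 at 2 h. By correlation the replicate letters were not taken as pairing the samples, and whether root and shoot of one letter came from the same seedlings is not stated. Deviations of same-lettered libraries correlated at -0.159 to 0.197 within root, -0.363 to 0.386 within shoot and -0.263 to 0.156 between them, where the 3 pairs at PEG 3 h reached 0.106, 0.134 and 0.156 and the 9 other pairs 0.067 at most. With the replicate block, 2 members differed between organs at 3 h in place of 1, IPT3 being added (1.08, adjusted p = 0.02). Scaling moved the share of higher calls over all genes. With DESeq2 size factors that share went from 34.5% to 56.2% for the difference between organs at 1 h. With upper-quartile factors it went from 59.2% to 47.7% in shoot at 2 h. In the fit to all 24 libraries it went from 55.9% to 35.2% in root at 1 h. That fit changes the filter and the estimate of the spread as well as the factors. Depth limits IPT7, ARR5, root ARR7, root CKX4 and shoot CKX5, which passed no filter within that organ.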

Other observations

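In water, 14 of the 36 wider cytokinin genes tested were higher and 15 lower in root, shares near the 37.8% and 47.6% over all genes, so the values below describe single genes and not the list. CPM here is on the scale common to all 24 libraries. The cytochrome P450s that make trans-zeatin type cytokinin were root transcripts: CYP735A2 read 11.6 ± 1.29 CPM in root and 0.52 ± 0.371 in shoot, and CYP735A1 read 8.61 ± 2.71 CPM in root with 0 counts in the shoot water libraries, which allows up to 0.315 CPM over the group. AHP6, the inhibitory phosphotransfer protein, read 16.3 ± 3.56 CPM in root, also with 0 counts and the same limit in shoot. Of the response genes, ARR3 read 20.4 ± 3.95 CPM in root and 0.513 ± 0.174 in shoot, and CRF3 37.6 ± 4.55 and 1.97 ± 0.542.

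Higher in shoot were the importer PUP14 (1.25 ± 0.849 CPM in root, 35.9 ± 14.4 in shoot), the receptor AHK3 (4.61 ± 1.49 and 24.1 ± 5.29), the type-B regulator ARR12 (0.788 ± 0.879 and 8.45 ± 0.789) and the exporter ABCG14 (1.16 ± 0.556 and 9.94 ± 1.27). Type-B regulators did not share an organ, since ARR1 and ARR2 were higher in root (2.59 and 2.49 on the log2 scale) and ARR10 and ARR12 lower (-2.33 and -3.32). With the library digit as a term, the calls of CYP735A1, CYP735A2, AHP6 and ARR3 were lost or reversed. Root and shoot water libraries shared no digit, so organ and digit cannot be told apart in that fit.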
